A study of Mus musculus with 4 samples.

Results

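The genes described here code for proteins stored in the primary and secondary granules of neutrophils. Elane, Mpo, Prtn3 and Ctsg belong to the primary, or azurophil, granules, and Camp, Ngp, Ltf and Lcn2 to the secondary, or specific, granules. They are 8 of the 31053 genes in the deposited feature table and were taken by symbol. They were chosen by their measured RNA levels in these same libraries, where earlier results had shown them to differ between groups, so their levels in cells and in low-count barcodes are a description and support nothing. The data are single-cell 3′ RNA libraries of lungs from mice with an orthotopic small cell lung cancer, in which tumour cells had been injected into the lung. Control mice were given vehicle with isotype IgG. Treated mice were given the PD-1 blocking antibody 29F.1A12 at 200 µg per mouse on Monday, Wednesday and Friday, the CDK7 inhibitor YKL-5-124 at 10 mg/kg on each weekday, or both agents. The perfused lungs were digested in full and sorted for live cells with DAPI, so tumour, immune and stromal cells entered the same library. Each group has 1 library, and how many mice a library pools, their age and their strain were not known here. With 1 library a group no treatment can be tested, and the 95% intervals given in brackets are exact Poisson or binomial intervals that cover counting error only.

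A neutrophil fills its granules in a fixed order while it matures in the bone marrow. Azurophil granules come first, in myeloblasts and promyelocytes. They hold the serine proteases neutrophil elastase (Elane), proteinase 3 (Prtn3) and cathepsin G (Ctsg), together with myeloperoxidase (Mpo), which makes hypochlorous acid. Specific granules follow in myelocytes and metamyelocytes, under C/EBP epsilon. They hold the cathelicidin precursor (Camp), neutrophilic granule protein (Ngp), the iron-binding lactoferrin (Ltf) and lipocalin 2 (Lcn2), which captures bacterial siderophores. Transcription of most of these genes ends before the cell leaves the marrow, while the proteins remain. Lcn2 is also made by airway epithelium and by macrophages in inflammation, and Prtn3 RNA is found in the shared precursors of monocytes and neutrophils.

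The genes lie at few places in the mouse genome (GENCODE M21, GRCm38). Prtn3 (ENSMUSG00000057729, chr10:79874476-79883174, plus strand) ends 3.07 kb before Elane (ENSMUSG00000020125, chr10:79886247-79888215, plus strand). Mpo (ENSMUSG00000009350) is at chr11:87793581-87804413 on the plus strand, and Ctsg (ENSMUSG00000040314) at chr14:56099881-56102574 on the minus strand. Camp (ENSMUSG00000038357, chr9:109847379-109849617, minus strand), Ngp (ENSMUSG00000032484, chr9:110419747-110423012, plus strand) and Ltf (ENSMUSG00000032496, chr9:111019271-111042767, plus strand) lie within 1195 kb of chromosome 9. Lcn2 (ENSMUSG00000026822) is at chr2:32384633-32388252 on the minus strand.

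The stretches before the starts are shown because the azurophil and the specific genes differ in their letters there as well as in the cells that carry their RNA. All 8 genes matched the RefSeq promoter table (GRCm38.p6), and the 250 bases before each RefSeq start were searched on both strands. The pattern AGGAAGT, which holds the core GGAA that PU.1 and related ETS factors recognise, was in 4 of 4 azurophil and 0 of 4 specific windows. It was in 7.69% of all 32851 windows. The core GGAA itself, on either strand, was also in each of the 4 specific windows. The letters AGGAAGT were chosen after the windows had been read. The C/EBP pattern TTNNGNAA was in 0 of 4 azurophil and 3 of 4 specific windows, and in 36.8% of all. The MYB pattern AACNG was in all 8 windows and in 74.2% of all, and the RUNX pattern TGTGGT in 1 of 8, that of Ctsg, and in 14.0% of all. A match is a description of the letters and not a binding site. Each line below gives the window up to its first base in an annotated exon of the gene, on the gene's own strand, with AGGAAGT in capitals for the azurophil genes. They are chr10:79886062-79886246 on the plus strand for Elane, chr11:87793534-87793580 on the plus strand for Mpo, chr10:79879417-79879613 on the plus strand for Prtn3 and chr14:56102575-56102824 on the minus strand for Ctsg. The Prtn3 stretch lies inside the GENCODE span of the gene, which starts upstream of the RefSeq start, and outside its annotated exons. The AGGAAGT match begins 84, 223, 94 and 206 bases before the RefSeq start, in that order.
Elane: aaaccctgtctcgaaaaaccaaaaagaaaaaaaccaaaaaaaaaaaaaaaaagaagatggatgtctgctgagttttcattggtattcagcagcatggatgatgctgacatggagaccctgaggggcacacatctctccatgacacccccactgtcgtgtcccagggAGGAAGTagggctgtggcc
Mpo: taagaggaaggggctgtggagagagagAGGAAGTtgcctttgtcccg
Prtn3: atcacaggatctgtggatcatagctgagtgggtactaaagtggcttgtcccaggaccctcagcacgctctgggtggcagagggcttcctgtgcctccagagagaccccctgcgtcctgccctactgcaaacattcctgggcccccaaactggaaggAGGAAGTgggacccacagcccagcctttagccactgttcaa
Ctsg: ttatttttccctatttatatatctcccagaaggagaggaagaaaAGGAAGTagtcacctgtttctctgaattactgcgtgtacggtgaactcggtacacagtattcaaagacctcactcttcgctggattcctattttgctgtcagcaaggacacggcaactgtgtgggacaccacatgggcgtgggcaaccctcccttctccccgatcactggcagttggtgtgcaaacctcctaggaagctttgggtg

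For the specific genes, the lines show chr9:110419558-110419746 for Ngp and chr9:111019042-111019270 for Ltf, both on the plus strand, with the TTNNGNAA matches in capitals. They begin 138 and 102 bases before the RefSeq start in Ngp, and 217 and 75 bases in Ltf. The full Ngp window held 3 matches, and the one not shown lies past its first exon base. The Lcn2 match is not shown, as that window has 0 bases before an annotated exon.
Ngp: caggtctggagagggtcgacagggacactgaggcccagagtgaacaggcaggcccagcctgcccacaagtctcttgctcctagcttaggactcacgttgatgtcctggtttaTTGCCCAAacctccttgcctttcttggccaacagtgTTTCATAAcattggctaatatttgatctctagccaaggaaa
Ltf: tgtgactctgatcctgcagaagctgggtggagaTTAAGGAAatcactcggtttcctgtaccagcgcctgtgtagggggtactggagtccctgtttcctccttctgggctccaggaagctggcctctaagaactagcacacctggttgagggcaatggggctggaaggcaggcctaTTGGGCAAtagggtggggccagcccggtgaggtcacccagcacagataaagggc

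The libraries held 17329001 to 22950622 unique molecular identifiers (UMIs, 1 per captured RNA molecule) and gave 3384 control, 2676 anti-PD-1, 4014 YKL-5-124 and 3911 combination cells. Median depth was 1913, 1921.5, 1970 and 2193 UMIs per cell. The libraries share cell barcodes. Any 2 of them had 429 to 507 barcodes of kept cells in common, where 12.3 to 21.3 would be shared by chance, and cells of at least 10000 UMIs had a median of 1.96 to 3.05% of their UMI number at the same barcode in each other library. Of all 13985 cells, 1539 (11.0%) held more UMIs in another library, 1152 of them tumour-gated, 26 neutrophil-gated and 7 monocyte-gated. Values that rest on such barcodes are given below with and without them.

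Cells were placed in classes by counting fixed markers in each cell, with none of the 8 genes among them. The neutrophil gate, built on S100a8, Csf3r, Cxcr2, Ly6g, Retnlg and 11 other genes, took 108 control cells, 101 anti-PD-1 cells, 711 YKL-5-124 cells and 205 combination cells, which is 3.19%, 3.77%, 17.7% and 5.24% of the cells. These cells carried a median of 10, 9, 12 and 11 of the gate's own 16 markers and a median of at most 1 of any other class. Their median depth was 1020, 1015, 1620 and 1348 UMIs, so the YKL-5-124 cells were the deepest.

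Specific granule RNA was at a high level in the neutrophil-gated cells of the YKL-5-124 library, lower under the combination, and low in the other libraries. Summed over Camp, Ngp, Ltf and Lcn2, it was at 327 CPM (UMIs scaled to a fixed total per class and library, 243 to 430) in control, 578 CPM (450 to 731) under anti-PD-1, 33795 CPM (33507 to 34085) under YKL-5-124 and 3427 CPM (3247 to 3615) under the combination. The YKL-5-124 level was 103 times that of control (78.6 to 139), the combination level 10.5 times (7.93 to 14.2), and the combination stood at 0.101 of YKL-5-124 alone (0.0960 to 0.107). Without barcodes that hold more UMIs elsewhere the levels were 262, 420, 33754 and 3429 CPM.

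Ngp, an abundant cystatin-related protein of specific granules, had the most UMIs of the 4 under YKL-5-124 and the combination. It was at 64.1 CPM in control (10 UMIs), 117 under anti-PD-1 (14 UMIs), 21296 under YKL-5-124 (33173 UMIs) and 1777 under the combination (700 UMIs). Of the control and anti-PD-1 UMIs, 3 and 1 remained when barcodes with more UMIs elsewhere were left out. Camp, the precursor of an antimicrobial peptide, was at 12.8, 67.0, 6146 and 576 CPM in the same order. Its 2 control and 8 anti-PD-1 UMIs each lay in 1 cell, and 0 remained in both libraries without the shared barcodes. Ltf, which binds iron, was at 12.8, 8.37, 2986 and 223 CPM. Its control and anti-PD-1 levels rest on 2 UMIs and 1 UMI. Lcn2, which binds siderophores, had the most UMIs of the 4 genes in control and anti-PD-1, at 237, 385, 3367 and 850 CPM, with 37, 46, 5244 and 335 UMIs behind these levels.

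The ratios to control therefore differ in how well they are measured. Lcn2 was 14.2 times its control level under YKL-5-124 (10.3 to 20.2) and 3.59 times under the combination (2.55 to 5.18). Ngp was 332 times its control level under YKL-5-124 (181 to 693) and 27.7 times under the combination (14.99 to 58.1). For Camp and Ltf the control holds 2 UMIs each, and the YKL-5-124 ratios of 479 (133 to 3960) and 233 (64.4 to 1924) have wide intervals. The 4 specific genes counted as higher in YKL-5-124 against control by a rule of size, 1.5-fold after adding 10 CPM, which took 11.0% of the 5733 genes measured. They also counted as higher in the combination against control, where the rule took 16.7%, and as lower in the combination against YKL-5-124, where it took 5.64% of genes as lower. In anti-PD-1 against control 3 of 4 counted as higher, Camp, Ngp and Lcn2, where the rule took 21.4%. Without barcodes that hold more UMIs elsewhere, Camp had 0 UMIs in both libraries and Ngp was at 8.74 CPM under anti-PD-1 against 19.7 in control, so 2 of these 3 counts rest on such barcodes, while Lcn2 was at 402 against 229.6 CPM. The choice of the members used these libraries, so nothing is read from these counts.

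Most of this RNA sat in some of the cells. The median neutrophil-gated cell held 0 specific granule UMIs in control and under anti-PD-1, 7 under YKL-5-124 and 1 under the combination. In the YKL-5-124 library the middle 50% of cells ran from 2 to 38.5 UMIs and the highest cell held 1989. The highest cell held 6 in control, 21 under anti-PD-1 and 294 under the combination, and the anti-PD-1 cell has more UMIs at its barcode in another library. Cells without any such UMI were 70.4% in control, 73.3% under anti-PD-1, 14.3% under YKL-5-124 and 46.8% under the combination. At least 10 UMIs were held by 0 of 108 control cells, where 0 allows up to 2.78% (3 cells of the total), by 1 of 101 under anti-PD-1, by 309 of 711 under YKL-5-124 (43.5%, 39.8 to 47.2%) and by 11 of 205 under the combination (5.37%, 2.71 to 9.40%). The range of the YKL-5-124 cells covers that of every other library, so the libraries overlap cell by cell and differ in the share of rich cells. In clusters built without the 8 genes, 1 cluster of 270 cells held 237 of the cells with at least 10 UMIs. That cluster had 259 YKL-5-124 cells, 10 combination cells, 1 anti-PD-1 cell and 0 control cells, and a cluster mostly of 1 library may be that library and not a cell state.

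**Figure D1:**
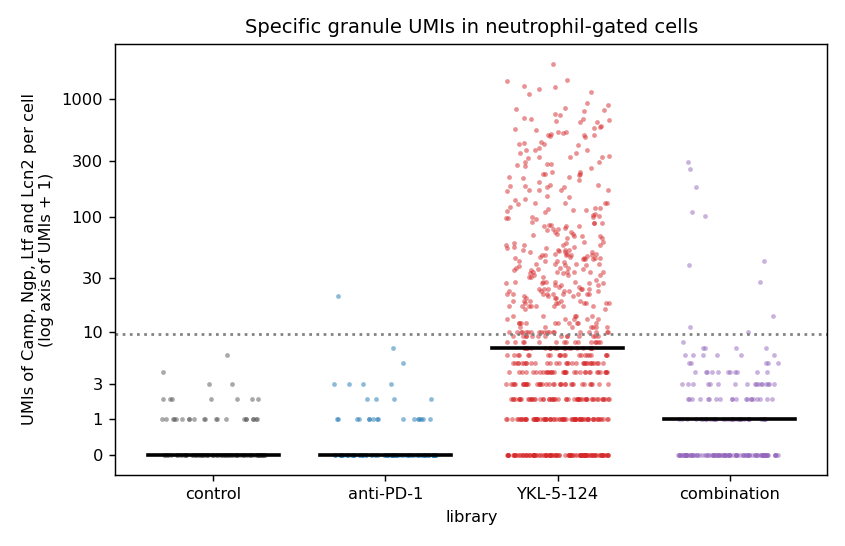
UMIs of Camp, Ngp, Ltf and Lcn2 in each neutrophil-gated cell (log axis of UMIs + 1), 1 point a cell, by library, with bars at the medians of 0, 0, 7 and 1 and a dotted line just below the limit of 10 UMIs. In the YKL-5-124 library 309 of 711 cells lie above the line, against 0 of 108 in control, 1 of 101 under anti-PD-1 and 11 of 205 under the combination.

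Depth differs between the libraries, so cells were also thinned to 800 UMIs each, which left 78, 73, 677 and 193 cells. Lcn2 was then found in 20.5% of control cells, 20.5% under anti-PD-1, 74.7% under YKL-5-124 and 38.9% under the combination. Ngp was found in 2.56%, 0%, 57.0% and 9.84%, Camp in 0%, 0%, 23.9% and 4.15%, and Ltf in 1.28%, 1.37%, 15.5% and 3.63%. By the same limit of 3 cells, a share of 0 allows up to 3.85% of 78 cells and 4.11% of 73 cells. At equal depth the share with at least 10 specific UMIs was 32.9% in the YKL-5-124 library (29.4 to 36.6%) and 4.15% under the combination (1.81 to 8.004%). As a background, B-gated cells of the YKL-5-124 library, with a median of 1458 UMIs and no known use of these genes, carried an Ngp UMI in 5.90% of 695 cells and an Lcn2 UMI in 1.58%.

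**Figure D2:**
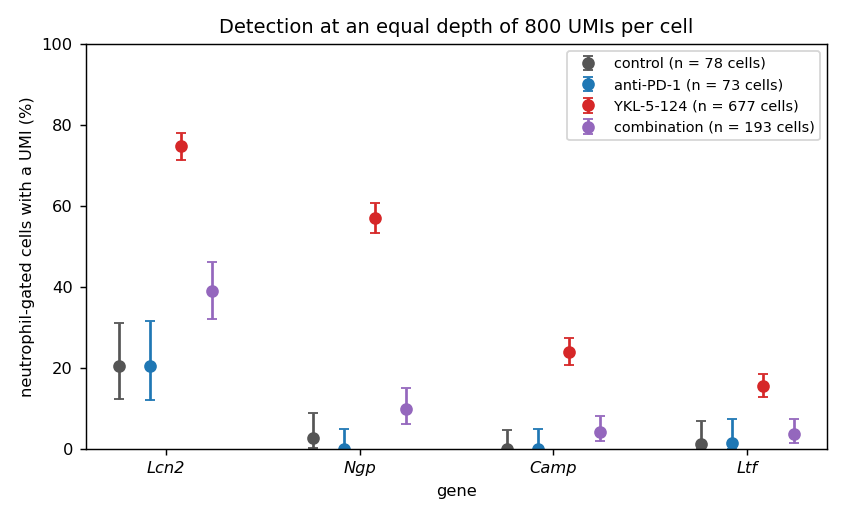
Share of neutrophil-gated cells with at least 1 UMI of each specific granule gene after thinning every cell to 800 UMIs, by library, with exact binomial 95% intervals. The order Lcn2, Ngp, Camp, Ltf is seen in the YKL-5-124 and combination libraries, with overlapping intervals for Camp and Ltf in the combination, and for each gene the YKL-5-124 point lies above those of the other libraries, from 15.5% for Ltf to 74.7% for Lcn2.

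Detection was nested in the YKL-5-124 library, beside a high detection of Lcn2 and Ngp in all its neutrophil-gated cells. Of all 711 cells, 586 had Lcn2, 441 Ngp, 201 Camp and 129 Ltf. Of the 129 cells with Ltf, 98.4% had Ngp, 93.8% had Camp and 96.9% had Lcn2. Of the 201 cells with Camp, 97.0% had Ngp and 60.2% had Ltf. Of the 441 cells with Ngp, 95.5% had Lcn2 and 44.2% had Camp. In the other direction, 71.8% of the 586 cells with Lcn2 had Ngp and 21.3% had Ltf. At 800 UMIs a cell the same shares were 99.0% and 94.3% for Ngp and Camp among cells with Ltf, and 20.2% for Ltf among cells with Lcn2. Over all cells at that depth, 57.0% had Ngp, 23.9% Camp and 15.5% Ltf. In the combination 9 cells had Camp and 8 of them had Ngp, while 7 of the 12 with Ltf had Ngp.

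The makeup of the set differed between cells low and high in it. Cells of the YKL-5-124 library were put in bins by specific granule UMIs per 1000 UMIs, with 249 cells under 2, 220 at 2 to under 10, 155 at 10 to under 50 and 87 at 50 or more. From the lowest bin to the highest, Lcn2 made up 81.2%, 57.7%, 17.1% and 5.98% of the set's UMIs. Ngp made up 17.4%, 40.9%, 74.1% and 62.0%, so its share was highest in the third bin. Camp made up 0.355%, 1.16%, 6.96% and 21.3%, and Ltf 1.06%, 0.276%, 1.85% and 10.7%. Ltf was found in 3, 5, 35 and 86 cells of the bins. The bins were built from the same genes whose shares are given, so the binning can itself move these shares. They also differ in depth, with medians of 1277, 1454, 2037 and 3112 UMIs. The part of either in these shares was not tested.

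Other granule genes, which the bins did not use, differed between the bins as well, within the same cells and without a test. Cd177, which holds proteinase 3 on the surface of human neutrophils, was at 45.7, 185, 792 and 1445 CPM. Mmp8, the collagenase of specific granules, was at 463, 1365, 2863 and 3011 CPM. Chil3, a chitinase-like protein, was at 243, 100.1, 118 and 3479 CPM, and Serpinb1a, an inhibitor of the granule proteases, at 107, 42.3, 167 and 1189 CPM, so both were high in the top bin. Genes of the mature cell did not follow 1 pattern. The list of mature neutrophil genes summed to 28680, 58460, 78430 and 44460 CPM, highest in the third bin. Retnlg, a member of the list, gave 54330 of the 78430 CPM there, so this peak rests mostly on that gene. Il1b, the interleukin-1 beta gene, was at 7866, 9385, 5198 and 1493 CPM, and Cxcr2, the chemokine receptor of circulating neutrophils, at 539, 774, 573 and 207 CPM. Both were lowest in the top bin. Retnlg, a gate marker, was at 6947, 28110, 54330 and 31140 CPM, and Il1r2, a decoy receptor for interleukin-1 and also a gate marker, at 1221, 1774, 1624 and 1244 CPM. Fcnb, a ficolin of early granulocytes, was at 0 CPM in the lower 3 bins and at 128 CPM in the top bin.

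Across all neutrophil-gated cells, YKL-5-124 against control, genes of several fixed lists counted as higher or lower by the same 1.5-fold rule, beside 11.0% higher, 28.6% lower and a median log2 ratio of -0.26 over all genes measured. Of the early granule and packing genes, 10 of 12 were measured, 6 counted as higher and 1 as lower, with a median of 1.35. Serpinb1a was at 333 CPM against 6.41, Mgst1, a microsomal glutathione transferase, at 1716 against 545 and Ms4a3, a membrane protein of granulocyte-monocyte precursors, at 34.0 against 0. Of the 53 UMIs of Ms4a3, 37 lay in 1 cell, and it was found in 5 cells. Without the 3 neutrophil-gated cells of at least 30 azurophil UMIs, Ms4a3 was at 9.82 CPM, from 15 UMIs, and 5 of 9 measured genes of this list counted as higher and 2 as lower, with a median of 1.01. Of the other specific and gelatinase granule genes, 17 of 18 were measured, 8 counted as higher and 0 as lower, with a median of 0.53. Cd177 was at 541 CPM against 12.8, Olfm4, a specific granule glycoprotein, at 191 against 6.41, and Mmp8 at 1755 against 269. Of the granulopoiesis factors, 8 of 14 were measured, 1 counted as higher and 3 as lower, with a median of -0.43. Cebpe, which drives specific granule genes, was at 62.3 CPM against 25.6, the latter from 4 UMIs, and Cebpb at 213 against 487.

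The maturity and cell cycle lists are given beside the same 11.0% higher and 28.6% lower over all genes measured, and no direction is read from their counts. All 15 mature neutrophil genes were measured, of which 1 counted as higher and 5 as lower, with a median of -0.46. Retnlg was at 27762 CPM against 7736, while Ptgs2, the prostaglandin synthase, was at 204 against 449. Of the cell cycle genes 16 of 18 were measured, 5 counted as higher and 1 as lower, with a median of -0.01. Without the same 3 cells these were 5 and 2 of 16. Rrm2 had 56 UMIs against 2 in control, a ratio of 2.80 (0.741 to 23.7), and Birc5 58 against 3, at 1.94 (0.631 to 9.66). Both intervals reach below 1, and these counts rest on few control UMIs. Stmn1, with 331 UMIs against 61, counted as lower, at 0.544 (0.413 to 0.726). Csf3r and Cebpe each stand in 2 lists, and several mature genes also built the gate.

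Under the combination against control, 4 of 8 measured early granule genes, 4 of 16 other specific and gelatinase granule genes, 1 of 9 granulopoiesis factors, 0 of 15 mature genes and 0 of 10 cell cycle genes counted as higher, beside 16.7% of all genes. As lower counted 0, 0, 1, 2 and 5 of them in the same order, beside 15.8% of all genes. Of the cell cycle genes only Stmn1 had at least 50 UMIs in both libraries together, at 142 CPM against 391 in control. Binned by specific granule RNA as above, control cells held 445 CPM of cell cycle genes in 102 cells, 4639 in 5 and 20100 in 1. The list was not measured without shared barcodes, and no direction is read from its counts against control. Under anti-PD-1 against control, 3 of 8 early granule genes, 2 of 14 other specific and gelatinase granule genes, 0 of 9 granulopoiesis factors, 2 of 15 mature genes and 2 of 12 cell cycle genes counted as higher, beside 21.4% of all genes, and 2, 3, 2, 1 and 4 as lower, beside 24.3%. Under the combination against YKL-5-124, 5 of 10 early granule genes, 11 of 17 other specific and gelatinase granule genes, 1 of 8 granulopoiesis factors, 1 of 15 mature genes and 6 of 12 cell cycle genes counted as lower, beside 5.64% of all genes. The medians of the granule lists were -0.60 and -0.84, and that of the cell cycle list -0.62, against 0.23 over all genes. These comparisons each share a library with YKL-5-124 against control, so the values are set side by side and not as separate support.

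Azurophil granule RNA was in far fewer cells, and its level rested on a handful of them. At least 3 UMIs of the 4 azurophil genes together were held by 0 of 354 myeloid-gated control cells, which allows up to 0.847% by the same limit of 3 cells, by 1 of 354 under anti-PD-1, by 29 of 1262 under YKL-5-124 (2.30%, 1.54 to 3.28%) and by 2 of 868 under the combination (0.230%, 0.0279 to 0.830%). Of the 29 cells, 22 were monocyte-gated, 5 neutrophil-gated and 2 passed only the general myeloid gate. None of the 29 held more UMIs in another library. Thinned to 800 UMIs a cell, 6 of 1222 cells in the YKL-5-124 library kept at least 3 such UMIs (0.491%) and 0 of 318, 0 of 319 and 0 of 843 cells in control, anti-PD-1 and the combination. As a background, T-gated cells with at least 3 such UMIs were 0 of 879 in control, 1 of 601 under anti-PD-1 (0.166%), 0 of 738 under YKL-5-124 and 2 of 1098 under the combination (0.182%), at median depths of 1996, 2256, 2034.5 and 2425.5 UMIs. Tumour-gated cells were 3 of 929 in control (0.323%), 2 of 781 under anti-PD-1, 0 of 836 under YKL-5-124 and 1 of 733 under the combination. The azurophil UMIs of these deeper tumour-gated cells were 97.2%, 98.5%, 84.5% and 93.5% Prtn3, so they are no plain background. The myeloid shares under anti-PD-1 and the combination are near those of T-gated cells. They rest on 1 and 2 cells, which held Prtn3 alone, and nothing is read from them at this limit.

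The myeloid-gated cells of the YKL-5-124 library held 1766 azurophil UMIs, 76.9% of them in 2 cells and 87.0% in 5. The first cell, neutrophil-gated with 16338 UMIs, held 486 UMIs of Elane, 278 of Mpo, 90 of Prtn3 and 189 of Ctsg, which is 6.38% of its RNA. It also held 37 UMIs of Ms4a3, 9 of Cebpe and 60 of cell cycle genes over 11 of 18 genes, but 2 specific granule UMIs, 3 of S100a8 and 0 of S100a9 and Csf3r, so these defining neutrophil markers were near 0 in it. The second cell, in the general myeloid class with 15432 UMIs, held 73 of Elane, 136 of Mpo, 29 of Prtn3 and 77 of Ctsg, with 14 of Ms4a3, 27 of cell cycle genes and 0 of the specific genes. The third, monocyte-gated with 14162 UMIs, held 87 azurophil UMIs beside 28 of Ly6c2. The first cell's barcode also held 25, 31 and 32 azurophil UMIs in control, anti-PD-1 and the combination, out of 377 to 449 UMIs there.

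Levels of the azurophil genes in neutrophil-gated cells follow from these cells. In the YKL-5-124 library Elane was at 314 CPM, Mpo at 199, Prtn3 at 72.5 and Ctsg at 152 CPM, while the cells with a UMI of them were 4, 4, 10 and 4 of 711. In control Elane, Mpo and Prtn3 had 0 UMIs, where 3 UMIs would be 19.2 CPM, and Ctsg had 1. All 4 had 0 UMIs under anti-PD-1, and under the combination Ctsg had 2 UMIs in 1 cell and the others 0.

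Few cells were rich in both kinds of granule RNA. Of the 309 neutrophil-gated YKL-5-124 cells with at least 10 specific UMIs, 4 had any azurophil UMI and 2 had at least 3 of them. One of these held 3 UMIs of Prtn3, and the other 3 of Prtn3 and 1 of Elane. Most cells with azurophil RNA were monocyte-gated, a class in which 0 cells held 10 specific UMIs. Of the 5 neutrophil-gated cells with at least 3 azurophil UMIs, 2 passed the specific limit, beside 43.5% of all neutrophil-gated cells. These 2 held 4 and 3 azurophil UMIs. The other 3 held 1043, 58 and 33 azurophil UMIs and 2, 0 and 0 specific UMIs. So few cells cannot show whether the sets are apart within that class. The 5 cells with at least 30 azurophil UMIs held at most 2 specific UMIs each. Of the 29 cells with at least 3 azurophil UMIs, 16 had Prtn3 alone and 4 had all 4 genes.

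**Figure D3:**
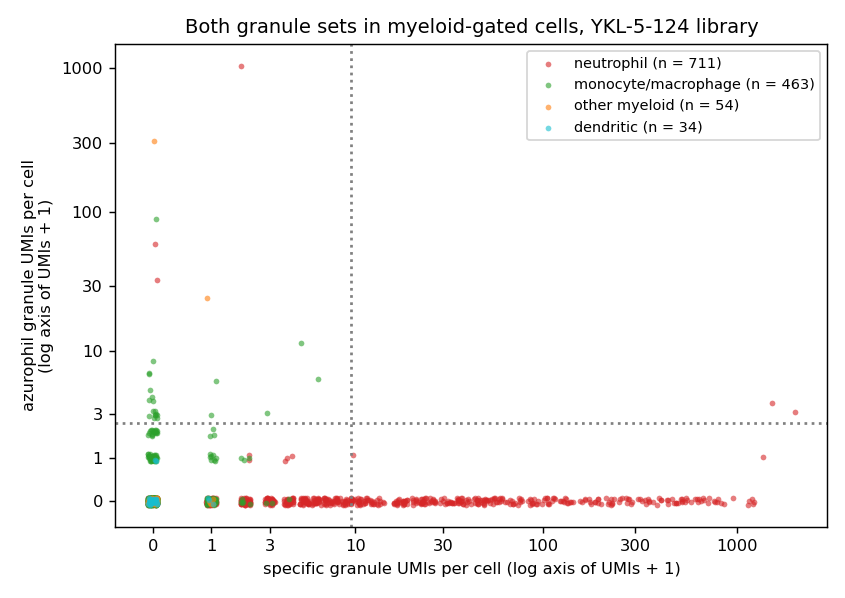
Azurophil against specific granule UMIs in each myeloid-gated cell of the YKL-5-124 library (log axes of UMIs + 1, points shifted slightly to show overlap), by class, with dotted lines just below the limits of 3 azurophil and 10 specific UMIs. Of the cells past either limit, 2 pass both, both of them neutrophil-gated, and the 5 cells with the most azurophil RNA hold at most 2 specific UMIs.

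Prtn3, proteinase 3, stood apart from the other azurophil genes. The monocyte and macrophage gate took 160, 188, 463 and 544 cells, with a median of 5, 5, 6 and 6 of its own markers and at most 2 of any other class. In these cells it was at 5.18 CPM in control (1.07 to 15.2), 27.5 under anti-PD-1 (16.5 to 42.9), 93.5 under YKL-5-124 (80.6 to 108) and 16.3 under the combination (11.5 to 22.5). It was found in 3 of 160, 15 of 188, 84 of 463 and 32 of 544 cells. All other azurophil genes together had 2, 1, 87 and 8 UMIs in these cells, against 3, 19, 188 and 37 of Prtn3. Without the YKL-5-124 cell of 87 azurophil UMIs, Prtn3 was at 81.6 CPM in that library (69.6 to 95.2) and the other 3 genes had 25 UMIs. Leaving out barcodes with more UMIs elsewhere removed none of the Prtn3 UMIs in any library. By the rule of size Prtn3 counted as higher in YKL-5-124 against control in these cells, where the rule took 4.47% of genes, in anti-PD-1 (6.60%) and in the combination (4.55%). All 3 counts rest on 3 control UMIs, and the combination's ratio of 3.14 has an interval from 0.996 to 15.9.

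Within the monocyte gate, Prtn3 was mostly in cells whose leading markers were those of classical monocytes, Ly6c2, F13a1 and Ccr2, a division made after the values were seen. Among them it was found in 3 of 59 control cells (5.08%), 13 of 79 under anti-PD-1 (16.5%), 77 of 271 under YKL-5-124 (28.4%) and 30 of 273 under the combination (10.99%). Their median depths were close, at 4322, 4441, 4564 and 4323 UMIs. The level was 11.8, 44.0, 140 and 27.8 CPM, so YKL-5-124 was 11.8 times control (3.98 to 57.8), 3.18 times anti-PD-1 (1.90 to 5.68) and 5.04 times the combination (3.49 to 7.46). The YKL-5-124 values include the cell of 87 azurophil UMIs, which held 25 of the 180 Prtn3 UMIs. They were not measured without it. Cells led by nonclassical markers were at 0, 5.53, 12.8 and 1.55 CPM and cells led by C1q macrophage markers at 0, 16.3, 4.85 and 3.92 CPM. B-gated cells of the YKL-5-124 library were at 0.821 CPM, from 1 of 695 cells.

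Prtn3 was also the azurophil gene with the most UMIs in the tumour-gated cells, whose median depth was 6387, 3899, 6016.5 and 5453 UMIs. There it was at 9.36 CPM in control (7.65 to 11.3), 8.67 under anti-PD-1, 7.28 under YKL-5-124 and 7.81 under the combination (5.93 to 10.1), and the intervals of all libraries overlap. Elane, Mpo and Ctsg together had 3, 1, 11 and 4 UMIs against 104, 64, 60 and 58 of Prtn3. It was found in 86 of 929, 53 of 781, 52 of 836 and 45 of 733 cells. Without barcodes that hold more UMIs elsewhere the UMIs were 99, 60, 53 and 57.

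**Figure D4:**
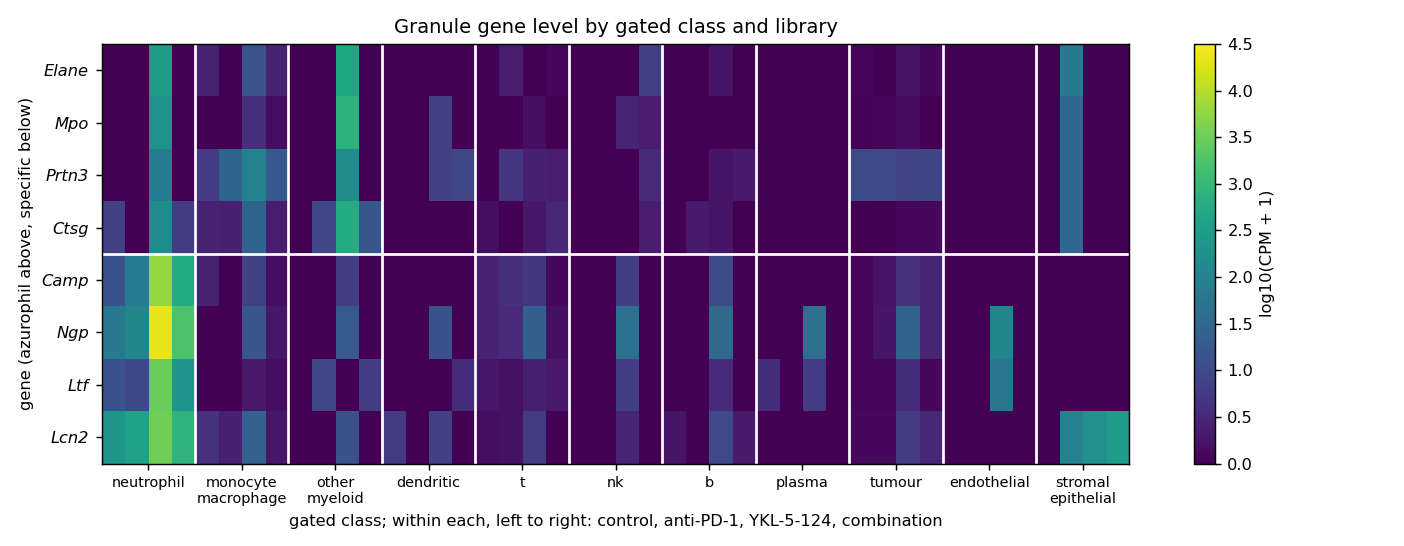
Level of each granule gene (colour, log10 of CPM + 1) by gated class, with the 4 libraries side by side in each class, azurophil genes above the white line and specific genes below. The neutrophil columns of the YKL-5-124 library are the brightest, up to 21296 CPM for Ngp, the same library shows a faint specific signal in every class, and Prtn3 is the highest azurophil gene in the monocyte and tumour columns.

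In the YKL-5-124 library specific granule RNA was found at a low level in classes not known to make it. The summed level was 55.8 CPM in B-gated cells (43.3 to 70.7), 56.2 in NK-gated cells, 35.0 in T-gated cells and 38.1 in tumour-gated cells. In control these were 0.824, 0, 4.94 and 0.810 CPM, and 10 of the 11 T-gated UMIs lay in 1 cell. Under the combination they were 1.12, 0, 1.87 and 6.20 CPM, and under anti-PD-1 0, 0, 6.60 and 1.90. The makeup in the YKL-5-124 B-gated cells, 61.8% Ngp, 17.6% Camp, 16.2% Lcn2 and 4.41% Ltf, was near that of the same library's neutrophil-gated cells, at 63.0%, 18.2%, 9.96% and 8.84%. The highest B-gated cell held 2 such UMIs, so the RNA was spread thin. These levels are the background against which other classes of that library are read. The classes differ in depth, with YKL-5-124 medians of 1458 UMIs in B-gated and 6016.5 in tumour-gated cells. Equal CPM are therefore not equal UMIs per cell. The B-gated cells held 68 specific UMIs in 695 cells and the tumour-gated cells 314 in 836.

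Lcn2 differed from the other specific genes in monocyte-gated and in stromal or epithelial cells. In YKL-5-124 monocyte-gated cells it made up 52.6% of the set's UMIs. Its level was 24.9 CPM (18.5 to 32.8), against 9.03 (4.51 to 16.1) in B-gated cells of the same library, while Ngp was at 14.9 against 34.5. Lcn2 had 50 UMIs in 463 monocyte-gated and 11 in 695 B-gated cells, and Ngp 30 and 42. Median depths were 4267 and 1458 UMIs, so the Ngp levels differ in CPM more than in UMIs per cell. In control the monocyte-gated cells had 2 UMIs of Lcn2. In the stromal or epithelial gate, which holds few cells, Lcn2 was the only specific gene found, with 0 UMIs in 22 control cells, 3 in 6 cells under anti-PD-1, 8 in 11 under YKL-5-124 and 54 in 38 under the combination. The level was 295 CPM under the combination (222 to 385), with all 54 UMIs in 5 cells and 25 of them in 1. In control 3 UMIs would be 32.2 CPM. The azurophil genes had 5 UMIs in 2 of the 6 anti-PD-1 cells of this gate, too few to read a level from.

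Barcodes of 10 to 100 UMIs lie far below the cell limit and are read here as low-count barcodes, which in droplet data hold RNA free in the suspension. Over all of them, the specific set was at 502 CPM in control, 628 under anti-PD-1, 1760 under YKL-5-124 and 523 under the combination. The azurophil set was at 434, 434, 469 and 409 CPM, so it was level between the libraries and far above its level in most cells. Of the barcode list, 45342 barcodes had at least 10 UMIs in all 4 libraries, where 441 would by chance, and 32308 of these had no more than 500 UMIs in any. Of the azurophil UMIs in barcodes of 10 to 100 UMIs, 97.4%, 97.0%, 90.2% and 98.0% lay at these barcodes, against 44.2 to 56.3% of all UMIs. For the specific set the shares were 98.4%, 98.0%, 42.6% and 93.8%. Most of the low-count granule RNA of 3 libraries thus sat at barcodes common to all, and it cannot be told apart from RNA of those barcodes' cells, whatever their library.

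Barcodes with fewer than 10 UMIs in each other library gave other levels. There the specific set was at 10.5 CPM in control (5.61 to 18.0), 18.2 under anti-PD-1, 1831 under YKL-5-124 (1761 to 1902) and 56.0 under the combination (44.3 to 69.8). The YKL-5-124 level was 174 times control (101 to 327) and the combination level 5.31 times (2.93 to 10.4). Over all barcodes these ratios were 3.504 (3.32 to 3.70) and 1.04 (0.975 to 1.11). The azurophil set was at 18.6, 19.3, 86.5 (71.9 to 103) and 10.6 CPM, and YKL-5-124 was 4.64 times control (2.96 to 7.59). The makeup of the specific set there, 64.2% Ngp, 15.4% Camp, 11.1% Lcn2 and 9.26% Ltf in the YKL-5-124 library, was again near that of its neutrophil-gated cells. At barcodes found in all 4 libraries the specific set was at 1010 CPM in control, 1094 under anti-PD-1, 1697 under YKL-5-124 and 1082 under the combination, with Camp at 39.5% of it in control. By the rule of size 2.42% of genes were higher in YKL-5-124 against control over all barcodes and 6.03% in those with fewer than 10 UMIs elsewhere.

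**Figure D5:**
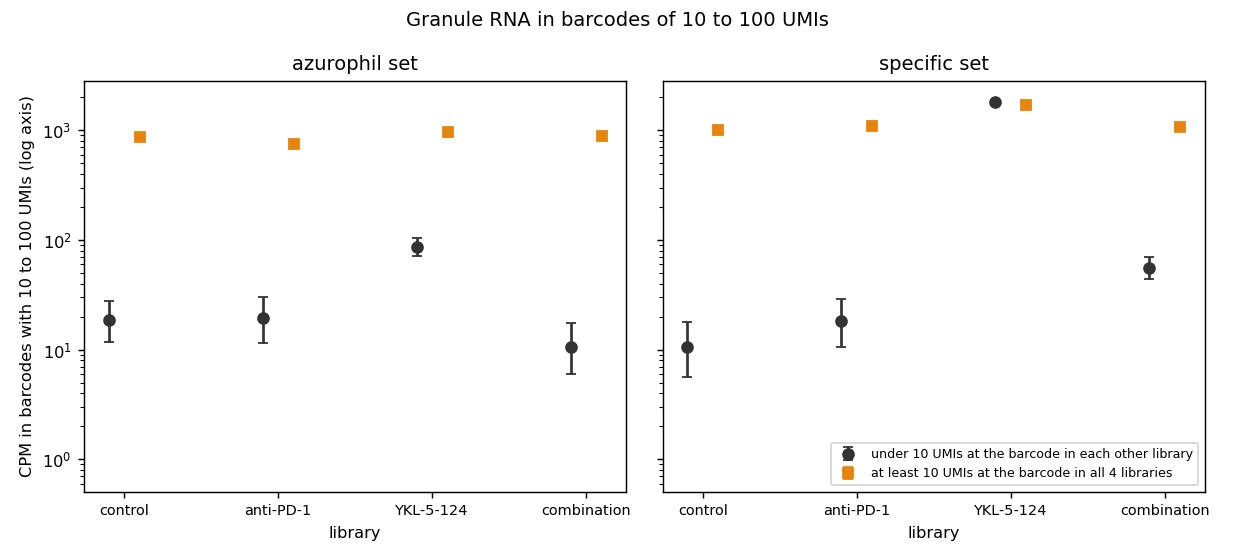
Level of the azurophil and the specific set (CPM, log axis) in barcodes of 10 to 100 UMIs by library, with exact Poisson 95% intervals. Shown apart are barcodes with at least 10 UMIs in all 4 libraries and those with fewer than 10 UMIs in each other library. The azurophil levels are 749 to 958 CPM in the first kind and 10.6 to 86.5 CPM in the second. The specific level of YKL-5-124 is 1697 and 1831 CPM.

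The genes whose levels were most like each set were sought over 38 class and library pairs of at least 20 cells, by Pearson's r of log2(CPM + 10), as a description of points that share libraries and depth. For the azurophil set they were Ms4a3 (r = 0.874), Tmem38b (0.617), Tkt (0.610), Cd177 (0.574) and Ifitm6 (0.571). For the specific set they were Retnlg (0.923), 9830107B12Rik (0.906), Ly6g (0.902), Mrgpra2a (0.900) and S100a9 (0.893), of which Retnlg, Ly6g and S100a9 are gate markers. The Ms4a3 level of the YKL-5-124 neutrophil-gated cells rests mostly on 1 cell, as given above. In these cells Ly6g, the surface marker of mouse neutrophils, was at 318 CPM under YKL-5-124 against 57.7 in control. The summed sets were less alike, with the specific genes at r of 0.353 to 0.463 to the azurophil set.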

How the data were processed

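The authors deposited 1 matrix of raw UMI counts per library, whole numbers for every gene and barcode with no normalization, per the file headers, which give software version 3.0.0. They were made with Cell Ranger after bcl2fastq, per the submitters' processing notes. The notes name hg19, but all gene IDs are mouse Ensembl IDs, and the true build behind the counts is unknown here.

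Cells had at least 500 UMIs, 300 genes and at most 10% mitochondrial UMIs. Scrublet's automatic threshold marked under 0.5% of cells, so the highest scores, 0.8% per 1000 cells, were removed (97, 60, 138 and 131 cells). A cell took the class with the most distinct fixed markers, at least 3 and no tie. Cells with under 3 markers of every class took a general myeloid class (212 cells) if they had at least 3 general myeloid markers and few non-myeloid ones. The rest, ties among them, were left ungated (703 cells). Of 1125 neutrophil-gated cells 44 lay near the limit of 3 markers or a tie, and of 1355 monocyte-gated cells 234. UMIs summed over a class in a library were scaled to CPM, with a floor of 3 UMIs for a level of 0. The rule of size used a pseudocount of 10 CPM and genes of at least 10 CPM in the mean of both libraries. Leiden clusters left the 8 genes out.

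The members, lists and settings were chosen with earlier results of these data known. Named genes are the members, up to 4 genes per list with the largest ratios among those of at least 50 UMIs, and the 5 genes most like each set. Genes given by bin, by cell or in classical monocytes were chosen after their values were seen. Ratio and gating steps were tested on simulated data. Software was Scanpy 1.11.5, igraph 0.11.9, scikit-learn 1.9.0, SciPy 1.17.1, pandas 2.3.3, NumPy 2.4.6 and Matplotlib 3.10.9 in Python 3.11.15.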

Additional observations from a re-analysis of the deposited data

Results flagged for a closer look

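Barcodes of 101 to 499 UMIs lie below the cell limit and above the free-RNA range and enter no comparison of the report. The azurophil set was at 1231 CPM there in control, 1581 CPM with anti-PD-1, 1099 CPM with YKL-5-124 and 1403 CPM with the combination. The anti-PD-1 and combination levels were picked out because they lie above the control level in data outside the main measurement. Elane alone was at 332, 451, 308 and 369 CPM. Barcodes of this range with fewer than 10 UMIs in each other library numbered 254, 154, 167 and 202 and held 0, 0, 1 and 0 azurophil UMIs. The part of shared barcodes in these levels was therefore measured by leaving them out, and other causes were not tested.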

How the results depend on the processing

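Of 70 alternatives over 19 results, 50 stayed within the counting interval or, for counts of list genes, within 1.5 times, 20 moved further and 0 reversed. Only a ratio of at least 1.5-fold in the report that changed sign would have counted as reversed. Shares, counts of list genes and the smaller free-RNA ratios could not, so the 0 does not speak for them. The specific set in neutrophil-gated cells, at a log2 ratio to control of 6.65 with YKL-5-124 and 3.35 with the combination, was at 7.15 and 3.87 in cells of at least 1000 UMIs and at 5.37 and 2.39 with cells weighted equally. The share of myeloid-gated cells with azurophil RNA, 2.30% with YKL-5-124 and 0.230% with the combination, was 0.951% and 0% at a minimum of 6 UMIs and 0.491% and 0% thinned to 800 UMIs. In free RNA the specific set's log2 ratio to control depended on the barcodes taken. With YKL-5-124 it was 1.79 in the report's range, 2.84 at 10 to 50 UMIs and 3.80 at 2 to 9 UMIs. With anti-PD-1 it was 0.32, then 0.0147 at 10 to 50 UMIs and 0.46 at 2 to 9 UMIs. With the combination it was 0.06, then -0.03 at 10 to 50 UMIs, a change of sign near 0, and 0.32 at 2 to 9 UMIs. Settings added after the data were seen took barcodes with fewer than 10 UMIs in each other library, at 6.49 with YKL-5-124, 0.46 with anti-PD-1 and 1.68 with the combination, or barcodes found in all 4 libraries, at 0.74 with YKL-5-124 and 0.11 with anti-PD-1. The cause of these moves was not tested beyond the settings themselves. No paired analysis was possible because each group has 1 library, and no replicate could be left out. The 108 control and 101 anti-PD-1 neutrophil-gated cells, with 156025 and 119434 UMIs, limit every ratio to them.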
